A study of Drosophila melanogaster with 4 samples.

Results

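The stretch of chromosome arm 3L that carries the cell death genes hid, grim and rpr, known as cytological region 75C, held 102 of the 6207 Homothorax peaks listed for Drosophila melanogaster embryos. Members were chosen by position and are the listed peaks on 3L whose midpoint lies from 18.15 to 18.45 Mb on FlyBase release 5. The region itself was selected on the peak numbers of this same list, in which its centre was already known to be among the fullest windows. Its peak number, scores and widths are therefore given as descriptions and without a test. In all, the region held 1.64% of the list and 7.54% of the 1353 peaks on 3L.

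Binding was measured by chromatin immunoprecipitation and sequencing (ChIP-seq) in whole embryos, with 2 ChIP libraries and 2 input DNA libraries. The antibody was a crude guinea pig polyclonal serum against the full-length Homothorax protein, encoded by hth. All 4 libraries came from the y cn bw sp strain, of unknown sex. The labels give y[1] with oc[R3.2] on the X chromosome. For the second chromosome they list the gustatory receptor alleles Gr22b[1] and Gr22d[1], the eye colour alleles cn[1] and bw[1], CG33964[R4.2], and sp[1]. The alleles LysC[1] and lab[R4.2], together with MstProx[1], and then GstD5[1] and Rh6[1], complete the genotype. The stage label is 0 to 8 h, while the protocol speaks of an 8 to 16 h window and of 8 h of laying. No mutant or treated group was part of the design, so the values below describe embryos of 1 genotype only.

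Each peak has 1 start, 1 end and 1 score for the whole series, made by the authors. What the score stands for is not stated in the labels or the file header, and it serves below only to rank and describe peaks of this list. No value belongs to a single library, so replicate error and the level in input cannot be given, and read depth is unknown. A peak list of whole embryos also holds no expression values, so the cells in which Homothorax was bound cannot be named and the stage label could not be checked against markers.

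Homothorax and its partner Extradenticle are TALE homeodomain proteins, and both act as DNA-binding partners of the Hox proteins. In the fly, hid, grim and rpr encode inducers of apoptosis. Their products bind the inhibitor of apoptosis Diap1 through a short motif at their N terminus, which frees caspases such as Dronc and Drice. Hox proteins are known to switch on these genes in particular segments: Deformed and Abdominal-B act on rpr at segment boundaries, and abdominal Hox proteins act on grim and rpr in neuroblasts, through regulatory DNA that lies between these genes.

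In the gene table at hand the order along 3L is hid, grim, rpr and then skl, or sickle, a related death inducer. Between hid and grim that table lists 9 genes, of which 4 code for proteins (CG7320, CheA75a, CG5103 and CG13700) and 5 are non-coding. The 3 genes between grim and rpr are all non-coding, as is the 1 gene between rpr and skl. This table describes release 6 of the genome, whose positions cannot be set beside release 5 peaks. No peak was therefore assigned to hid, grim or rpr, or to an exon, intron or untranslated region. For the same reason, peaks were not placed at the other death pathway genes looked up, namely the inhibitors Diap1, Diap2 and Bruce, the caspases Dronc, Drice, Dcp-1, Strica, Dredd, Damm and Decay, the caspase activator Dark, the Bcl-2 family members Debcl and Buffy, and p53.

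Homothorax peaks filled the middle of the region and thinned out at both ends. By 50 kb step from 18.15 Mb, the region held 9, 23, 22, 21, 19 and 8 peaks. The 4 inner steps thus carried 19 to 23 peaks each, and the outer steps 8 and 9. The share of bases inside peaks followed the same outline, with 6.85% in the first step, 37.5%, 40.9%, 36.5% and 27.2% in the inner steps, and 5.71% in the last. Over the whole 300 kb, peaks covered 77.3 kb, or 25.8%. Of 30 bins of 10 kb, 27 held at least 1 peak centre. The fullest, from 18310000 to 18320000, held 8.

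**Figure D1:**
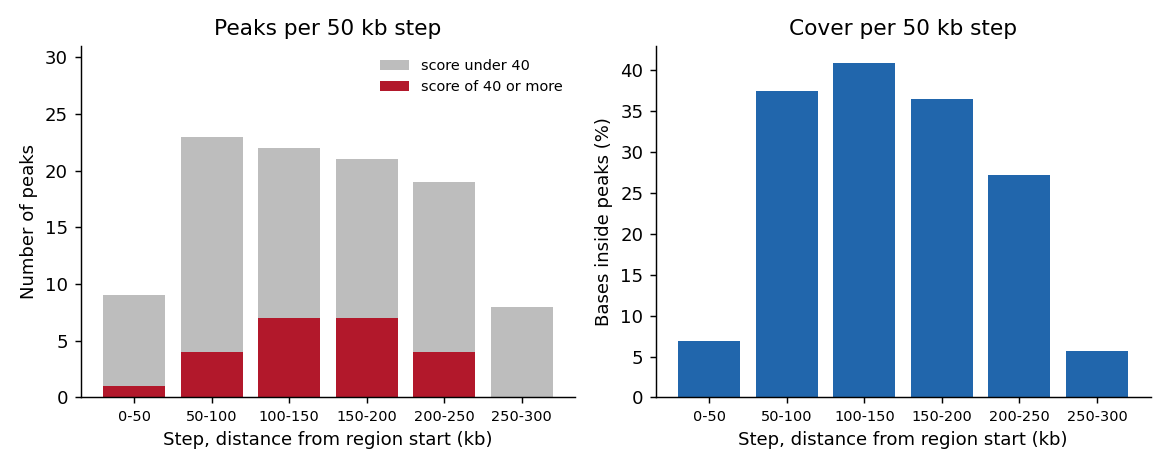
Peaks in each 50 kb step of the region (left, number of peaks, with those scoring 40 or more in red) and the share of each step's bases inside peaks (right, percent), by distance from the region's start in kb. The 4 inner steps hold 19 to 23 peaks each, while the outer ones hold 9 and 8.

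Strong peaks were spread over the inner steps and were absent from the last. Of the 102 peaks, 23 (22.5%) scored 40 or more, compared with 17.5% of the whole list. Another threshold, 100 or more, was reached by 6 peaks (5.88%), compared with 4.32% of the list. Both shares lie near those of the list. From the first step to the last, 1, 4, 7, 7, 4 and 0 peaks scored 40 or more. The median score was 18.32 in the region, with quartiles of 12.54 and 35.04, and 16.93 in the list, with quartiles of 11.51 and 29.72. Of the region's peaks, 60 (58.8%) scored at or above the list's median.

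**Figure D2:**
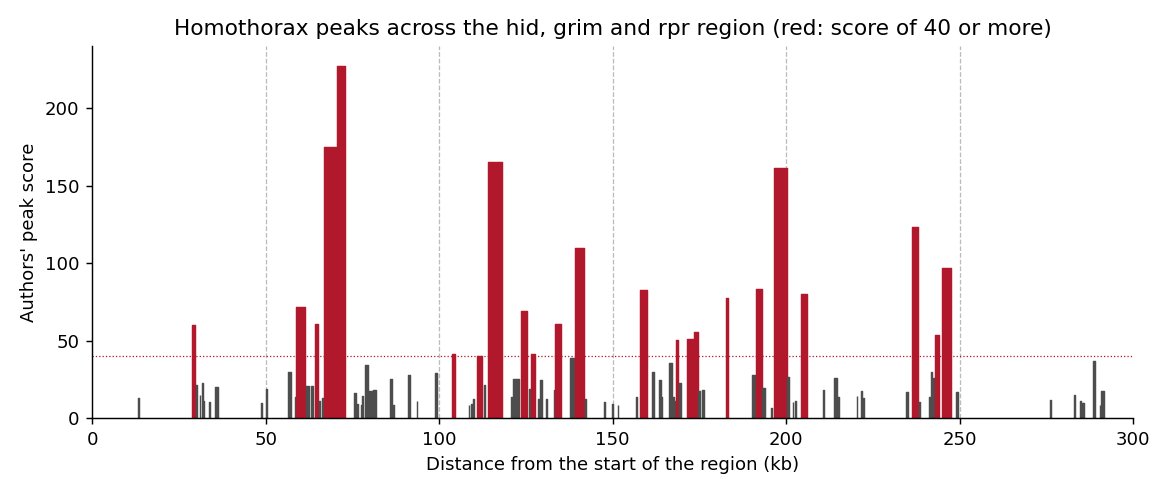
Each bar is 1 Homothorax peak, drawn at its true width along the region (x axis, kb from the region's start) and up to the authors' score (y axis); dashed lines mark the 50 kb steps and the dotted line a score of 40. The 6 peaks with a score of 100 or more lie 68.6 to 237.2 kb from the start, and none of the last 8 peaks reaches 40.

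The first step, 18.15 to 18.20 Mb, held a small separate group. A lone peak at 18163225 to 18163550 scored 12.95, and 15.2 kb further on a run of 7 peaks spanned 18178744 to 18186125, or 7.38 kb. A run here means consecutive peaks with at most 5 kb between them. The peak at the left end of that run, 18178744 to 18179575, scored 60.08 and was the only member of the step at 40 or more. The other 6 peaks of the run scored between 10.65 and 23.00. A gap of 12.6 kb without a peak followed.

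The second step, 18.20 to 18.25 Mb, held the highest scores of the region. The top peak lay at 18220618 to 18222881, was 2264 bp wide and scored 227.20, which ranked 26 in the whole list. It was separated by only 199 bp from the second highest, at 18216740 to 18220418, which was 3679 bp wide and scored 174.62. These neighbours closed a chain of 9 peaks less than 1 kb apart that ran for 14.4 kb, from 18208497 to 18222881. The same chain held another peak over 2 kb wide, at 18208797 to 18211327, with a score of 71.51, and a narrower one at 18214157 to 18215036 with 61.02. A chain of 7 peaks that followed, at 18225475 to 18231863, reached no more than 34.08. Close spacing thus occurred both with and without high scores.

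The third step, 18.25 to 18.30 Mb, was the most covered. Its highest peak, at 18264146 to 18267970, was the widest of the region with 3825 bp and scored 165.43. The peak at 18289143 to 18291748 scored 109.65 over 2606 bp. Between them a chain of 7 peaks at 18270610 to 18279628 stretched over 9.02 kb and peaked at 69.41. Also at 40 or more were the peaks at 18283404 to 18285116 (score 60.93), 18276422 to 18277694 (41.54), 18253811 to 18254681 (41.40) and 18260953 to 18262401 (40.15). Of the step's 22 peaks, 20 belonged to a single run of 21 peaks from 18248810 to 18292394, or 43.6 kb. No run of the region held more, and the run from 18206555 to 18243725 in the step before held as many.

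The fourth step, 18.30 to 18.35 Mb, had the highest median score of the 6, at 24.81, and 15 of its 21 peaks scored at or above the list's median. Its top peak was at 18346446 to 18350131, with a score of 160.99 and a width of 3686 bp. Next came 18341302 to 18342969 with 83.35 and 18307868 to 18309944 with 82.40. The peak at 18332561 to 18333245 stood alone, 6.32 kb from the peak before it and 6.95 kb from the peak after it. Although only 685 bp wide, it scored 77.37, the highest value among the 83 peaks of the region that were under 1 kb. The fullest 10 kb bin also lay in this step, yet none of its peaks exceeded 50.25.

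The fifth step, 18.35 to 18.40 Mb, held the last strong peaks. At 18386316 to 18388074 a peak of 1759 bp scored 123.25, the fifth highest value. It was followed by 18394860 to 18397392 with a score of 96.87, and further to the left 18354303 to 18355980 scored 80.09. A gap of 12.1 kb without a peak divided the step, and the run to its right, from 18384617 to 18399558, held 9 peaks in 14.9 kb. After that run the longest peak-free stretch of the region began, 26.5 kb from 18399558 to 18426019.

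The sixth step, 18.40 to 18.45 Mb, held only low peaks. All 8 lay beyond the long gap, 7 of them in a run from 18432978 to 18441478. The highest, at 18438496 to 18439089, scored 36.63, and the step's median was 11.46, the lowest of the 6. Which of the death genes these low peaks lie beside cannot be said without release 5 gene positions.

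Within the region, neighbouring peaks were mostly close together. The 101 gaps between them had a median of 785 bp, with quartiles of 243 and 1943 bp, whereas the median gap on the 6 arms was 1638 bp. Gaps shorter than 1 kb made up 56.4% in the region and 41.7% on the arms. A region chosen for many peaks has short gaps by that choice. Among the other fullest stretches of 300 kb, the median gap was 447 bp at 3R 2540929 to 2840928, with 120 peaks, 615 bp at 3R 650643 to 950642, with 101, and 848 bp at 3R 12487130 to 12787129, with 98. The spacing in the region thus lay within the range of stretches with similar numbers of peaks. Only the 4 gaps already given, of 15.2, 12.6, 12.1 and 26.5 kb, exceeded 10 kb inside the region. Of the 23 peaks scoring 40 or more, 20 had another peak within 1 kb, as had 31 of the 42 peaks below the list's median score. Of the same 23 peaks, 17 had lower-scoring peaks, under 40, on both sides, and 6 formed neighbouring pairs. No share over the whole list stands beside these counts of neighbours, so they describe the region only. From left to right, the centres of the 6 peaks scoring 100 or more were 3.17, 44.3, 24.4, 57.8 and 38.9 kb apart. The pair nearest to each other, 3.17 kb apart, was the one with the highest scores of the region.

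Wider peaks tended to score higher, although 6 of the 23 peaks at 40 or more were under 1 kb wide. Width and score had a Spearman rho of 0.87 across the 102 peaks and 0.81 across the list, as descriptions over peaks that share libraries and a peak caller. The 8 peaks over 2 kb (7.84%, compared with 6.44% of the list) all scored 40 or more, from 71.51 to 227.20, with a median of 135.32. For the list's peaks over 2 kb the median was 81.77. In contrast, the 28 peaks under 300 bp scored at most 21.73, with a median of 10.76, close to the 10.34 of such peaks in the list. Peaks from 300 bp to under 1 kb, 55 in number, had a median score of 19.51, and the 11 from 1 to 2 kb one of 55.86. In the list these classes had medians of 17.30 and 44.00. The region's median was thus above the list's in each class, and most of all in the wider classes, with 8 and 11 peaks of the region. This difference was not tested. The widest member, at 3825 bp, was far from the 31931 bp of the widest peak in the list.

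**Figure D3:**
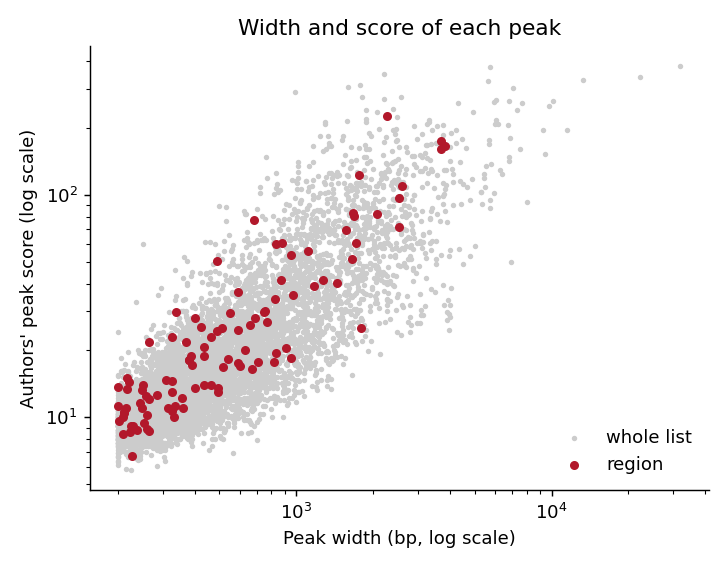
Peak width in bp (x axis, log scale) and the authors' score (y axis, log scale) for the whole list in grey and the 102 peaks of the region in red. Members follow the cloud of the list up to a width of 3825 bp, and their highest score is 227.20.

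Both edges of the region adjoin stretches without a peak. The peak just outside on the left, at 18132012 to 18132479, scored 18.48 and was followed by 30.7 kb without a peak before the first member, with its score of 12.95. On the right, the last member, at 18440768 to 18441478, scored 17.70, and the next listed peak began 179.6 kb further on, at 18621108, with a score of 9.42. In the 300 kb to the left lay 10 peaks, as many as in the median window tiled from position 1. Their top score was 141.10 and their median 22.38, above the 18.32 of the region, and 3 of the 10 scored 40 or more. The 300 kb to the right held 2 peaks, the higher at 11.82. Moving both edges by 25 kb left 96 or 101 peaks in place of 102. Whether reads can be mapped in the empty stretch on the right was not examined.

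Set beside other stretches of 300 kb, the region was among the fullest. None of 397 windows tiled from position 1 on the 6 arms held as many peaks. The fullest of those held 93, and their median was 10. Such tiles can divide a group of peaks, however, while the edges chosen here enclose one. When 300 kb stretches were started at any peak and taken without overlap, the region came second with 102 peaks, after 120 peaks at 3R 2540929 to 2840928. That stretch also held 23 peaks scoring 40 or more, the same number as the region, with 38.6% of its bases inside peaks. The next, at 3R 650643 to 950642, held 101, with 35.0% of its bases inside peaks. At 2L 14373086 to 14673085, 23 of only 66 peaks scored 40 or more, and 55.4% of the bases lay inside peaks. Of the 392 windows tiled in step with the region, 3 were more covered than its 25.8%. On 3L itself, the fullest other windows tiled in step with the region were 12450000 to 12750000 with 81 peaks and a top score of 163.40, and 11250000 to 11550000 with 52 peaks and a top score of 263.64. Their shares of peaks scoring 40 or more were 19.8% and 17.3%, and 19.7% and 15.0% of their bases lay inside peaks. Started at any peak, the fullest other stretches of 3L were 12433551 to 12733550 with 85 peaks and 15501288 to 15801287 with 72. Higher scores occurred elsewhere: 16 of 392 windows tiled in step with the region had a higher top score, and 1 member was in the top 1% of the list.

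**Figure D4:**
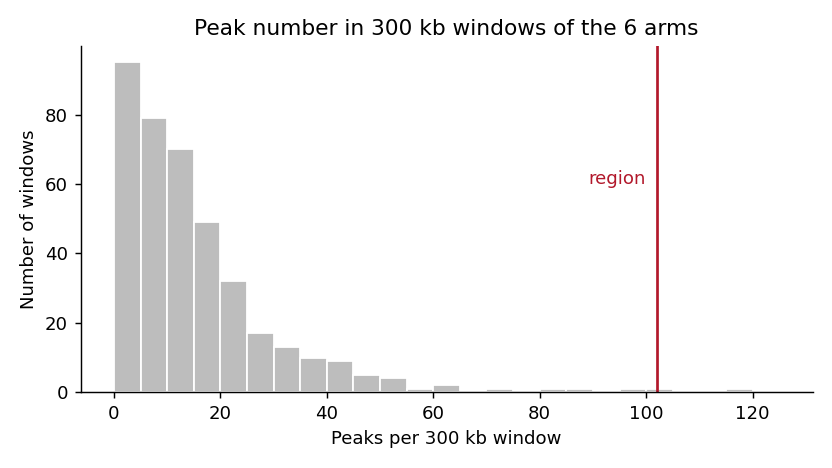
Number of 300 kb windows (y axis) by the number of Homothorax peaks they hold (x axis), for 392 windows of the 6 arms tiled in step with the region, which is the red line at 102. The median window holds 11 peaks, and 1 window holds more than the region.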

How the data were processed

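Homothorax ChIP-seq of embryos was analysed from 1 peak table of the whole series. Per the file headers, the authors' peaks were written by MACS on FlyBase release 5, with a score per peak of unstated meaning. The submitters' processing notes name BDGP5, CASAVA (1.7.0.2 and 1.7.0.3), BWA and MACS2. Whether replicates were pooled, and at which threshold peaks were called, is not given in the sources used. Columns 4 and 5 of the deposited table hold start and end; the midpoint placed each peak.

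Members, gene lists, thresholds and the score of 40 were chosen with earlier results of these data known, so no test was run. By rule, the text names the highest peak of each step, the 10 highest and 3 widest of the region, the edge peaks, the 300 kb on either side and the 2 fullest other windows of 3L; further peaks were named after their values were seen. All 20 genes looked up had an entry in the RefSeq table of release 6, used for names and order alone. Neither a genome sequence nor promoters were used here, so the planned nearest-gene and motif descriptions were not run. Counts of runs, chains and cover were tested on simulated data. Python 3.11.15, numpy 2.4.6, pandas 2.3.3, scipy 1.17.1 and matplotlib 3.10.9 were used.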

Additional observations from a re-analysis of the deposited data

How the results depend on the processing

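Of 20 alternatives, 11 left their result within the tolerance set for it, which was 1.5 times for a number or cover and the exact 95% binomial interval (14.9% to 31.9%) for the share scoring 40 or more. That interval treats neighbouring peaks of 1 list as independent, which they are not. It served only as a tolerance and is neither a test nor a measure of replicate error. Places were not compared. A fullest step or longest run at another position counted as within tolerance if its number of peaks was. Shifts of the region by 25 kb gave 96 and 101 peaks. Among the 50% of listed peaks with the highest score, the region held 60 peaks, 38.3% of which scored 40 or more (35.1% in the list so reduced), and the fullest 50 kb step became the fourth, with 15 peaks. Merging of peaks closer than 1 kb left 45 peaks, 35.6% of them at 40 or more (24.0% in the merged list). At most 9 then lay in a step, a number shared by the steps that start at 18250000, 18300000 and 18350000. The first setting removes low peaks by construction. Merging gives each joined group its highest score, so a low peak joined to a high one no longer counts. It left 16 instead of 23 peaks at 40 or more, and in the list, too, the share rose, from 17.5% to 24.0%. Steps shifted by 25 kb held at most 26 peaks, from 18275000. With gaps of up to 10 kb allowed, the longest run grew from 21 to 77 peaks, from 18198705 to 18372496, and with gaps of at most 2 kb it had 14 peaks and lay in the fourth step, from 18306798 to 18326238, so the division of the inner steps into runs depends on the gap chosen. The region ranked 1 by peak number among windows tiled from position 1, but 2 among windows tiled in step with it and 2 among stretches started at any peak, an alternative chosen after seeing the data. No paired analysis was possible because peaks carry no per-library value, which also prevents leaving out a replicate. Read depth, which limits how low a peak can be seen, is unknown.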
